A study of Mus musculus with 6 samples.

Results

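Prrx1, Prrx2, Twist1, Twist2, Msx1, Msx2, Lepr, Ly6a, Cd200 and Pdpn are 10 genes that mark limb mesenchyme or adult stromal progenitors. They were taken by gene symbol from a deposited table of 26130 genes, and all 10 had a row. The libraries were made from skeletal stem cells, progenitors that renew themselves and form skeletal tissue and its stroma, sorted at the Achilles tendon-to-bone interface of C57BL/6 mice. The groups were injured (n = 3), with a partial injury of that interface studied at day 7, uninjured (n = 1) and sham control (n = 2). No transgene or mutant allele is named in the labels. The age of the mice, the surface proteins used in the sort, and whether a library came from 1 animal or a pool are not stated in the sources used here. The library labelled uninjured in its title is described as a sham in another field, so it was kept apart in the first comparison and joined to sham control in the second.

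The first 6 of these genes code for transcription factors of embryonic limb mesenchyme, the loose tissue from which cartilage, bone, tendon and connective tissue of the limb arise. Prrx1 and Prrx2 are paired-related homeodomain proteins. Twist1 and Twist2 are basic helix-loop-helix proteins that hold mesenchymal cells undifferentiated, and Msx1 and Msx2 are homeodomain proteins induced by BMP signals. The other 4 code for surface proteins. Lepr, the leptin receptor, marks perivascular stromal cells of adult mouse bone marrow, Ly6a (Sca-1) marks many mouse progenitor and endothelial cells, Cd200 is an immunoregulatory glycoprotein used to purify mouse skeletal stem cells, and Pdpn (podoplanin) is found on fibroblastic stroma, lymphatic vessels and early osteocytes.

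Lepr, Msx1 and Pdpn were the 3 of the 10 genes whose injured libraries did not overlap the non-injured ones. Of all genes tested in that comparison, 16.3% did not overlap. Lepr and Msx1 lay wholly below, and Pdpn lay wholly above. To show the DNA at which these transcripts start, the RefSeq window from 250 bases before to 50 bases after the start is given for each, on build GRCm38.p6, together with that of Prrx1, whose groups overlapped. RefSeq had a window for 9 of the 10 genes, and Ly6a had no entry. Capitals mark CANNTG, the E-box read by basic helix-loop-helix proteins. The windows are chr4:101717157-101717456 on the plus strand for the upstream start of Lepr, chr5:37824536-37824835 on the minus strand for Msx1, chr4:143299515-143299814 on the minus strand for Pdpn and chr1:163313601-163313900 on the minus strand for Prrx1.
Lepr: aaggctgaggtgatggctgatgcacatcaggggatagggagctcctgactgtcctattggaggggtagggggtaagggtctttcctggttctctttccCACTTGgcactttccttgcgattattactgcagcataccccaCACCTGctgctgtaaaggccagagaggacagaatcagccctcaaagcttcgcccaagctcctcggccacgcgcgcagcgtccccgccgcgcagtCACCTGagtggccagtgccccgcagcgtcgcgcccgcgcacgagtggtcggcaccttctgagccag
Msx1: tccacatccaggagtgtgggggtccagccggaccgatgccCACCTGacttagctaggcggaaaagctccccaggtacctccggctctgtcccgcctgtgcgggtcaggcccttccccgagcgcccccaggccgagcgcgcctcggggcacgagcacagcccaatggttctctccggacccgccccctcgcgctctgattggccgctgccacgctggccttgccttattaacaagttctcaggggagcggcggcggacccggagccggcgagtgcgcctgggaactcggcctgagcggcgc
Pdpn: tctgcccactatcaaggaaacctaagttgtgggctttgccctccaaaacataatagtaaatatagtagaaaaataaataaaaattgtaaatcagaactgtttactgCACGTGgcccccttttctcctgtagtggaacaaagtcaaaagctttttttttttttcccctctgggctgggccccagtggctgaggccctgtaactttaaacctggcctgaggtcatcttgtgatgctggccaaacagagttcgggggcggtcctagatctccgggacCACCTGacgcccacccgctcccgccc
Prrx1: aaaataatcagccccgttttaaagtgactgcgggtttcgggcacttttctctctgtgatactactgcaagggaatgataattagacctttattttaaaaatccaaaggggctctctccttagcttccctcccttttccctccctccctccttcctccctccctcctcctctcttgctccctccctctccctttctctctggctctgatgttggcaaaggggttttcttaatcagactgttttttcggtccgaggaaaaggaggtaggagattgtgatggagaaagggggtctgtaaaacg
The Lepr window held 3 E-boxes, that of Pdpn 2, that of Msx1 1 and that of Prrx1 0. Among the windows not printed, that of Cd200 held 2 and that of Msx2 1, though the groups overlapped for both genes. A second Lepr start held 0, as did Prrx2, Twist1 and Twist2. Of 32851 windows of this length, 72.3% held at least 1. Read on both strands, the form CACCTG stood at positions -110 and -16 of the Lepr window, -210 of Msx1 and 25 of Pdpn, counted from 1 at the start. It is a subset of the E-boxes, was singled out after the sequences were read, and was found in 20.2% of all windows. The windows of Prrx1, Prrx2, Twist1, Twist2, Msx2 and Cd200 held no CACCTG, nor did the second Lepr start, 499 bases downstream. These matches describe letters only.

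Total counts were 49952680, 51089267 and 46250870 in injured 1, 2 and 3, 37506188 in uninjured, and 38382144 and 40483028 in sham control 1 and 2. Injured 1 and sham control 1 stood apart from the rest. Ribosomal RNA genes took 14.7% and 15.0% of their counts, against 2.89% to 5.32% in the other libraries, and both had the highest sums of macrophage, neutrophil, lymphocyte and erythroid genes. Genes of proteins commonly selected for or against when skeletal stem cells are sorted gave a mixed picture. Itgav, selected for, had 33.7 to 116 CPM in injured libraries, 51.9 CPM in uninjured, and 31.1 and 72.0 CPM in sham control. The leukocyte gene Ptprc had no count in injured 3 or sham control 2. It had 24.8 CPM in injured 1, 15.1 in injured 2, 1.24 in uninjured and 9.95 in sham control 1. The endothelial gene Tek had 4.66 to 9.28 CPM in injured libraries, 61.7 CPM in uninjured, and 58.1 and 0.580 CPM in sham control 1 and 2. Eng, also selected against, had 5.46 to 66.1 CPM in injured libraries, 25.5 in uninjured, and 201 and 0 in sham control 1 and 2. For Thy1 these values were 0.193 to 14.3, 0.0730, and 11.8 and 0.0828 CPM. For Enpep they were 3.43 to 6.27, 9.08, and 16.1 and 0 CPM. Levels are CPM, counts scaled to a common library size by the trimmed mean of M-values. At an input of 150 pg of RNA amplified before sequencing, a rare transcript can drop out of a library, and reads are not independent molecules.

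**Figure D1:**
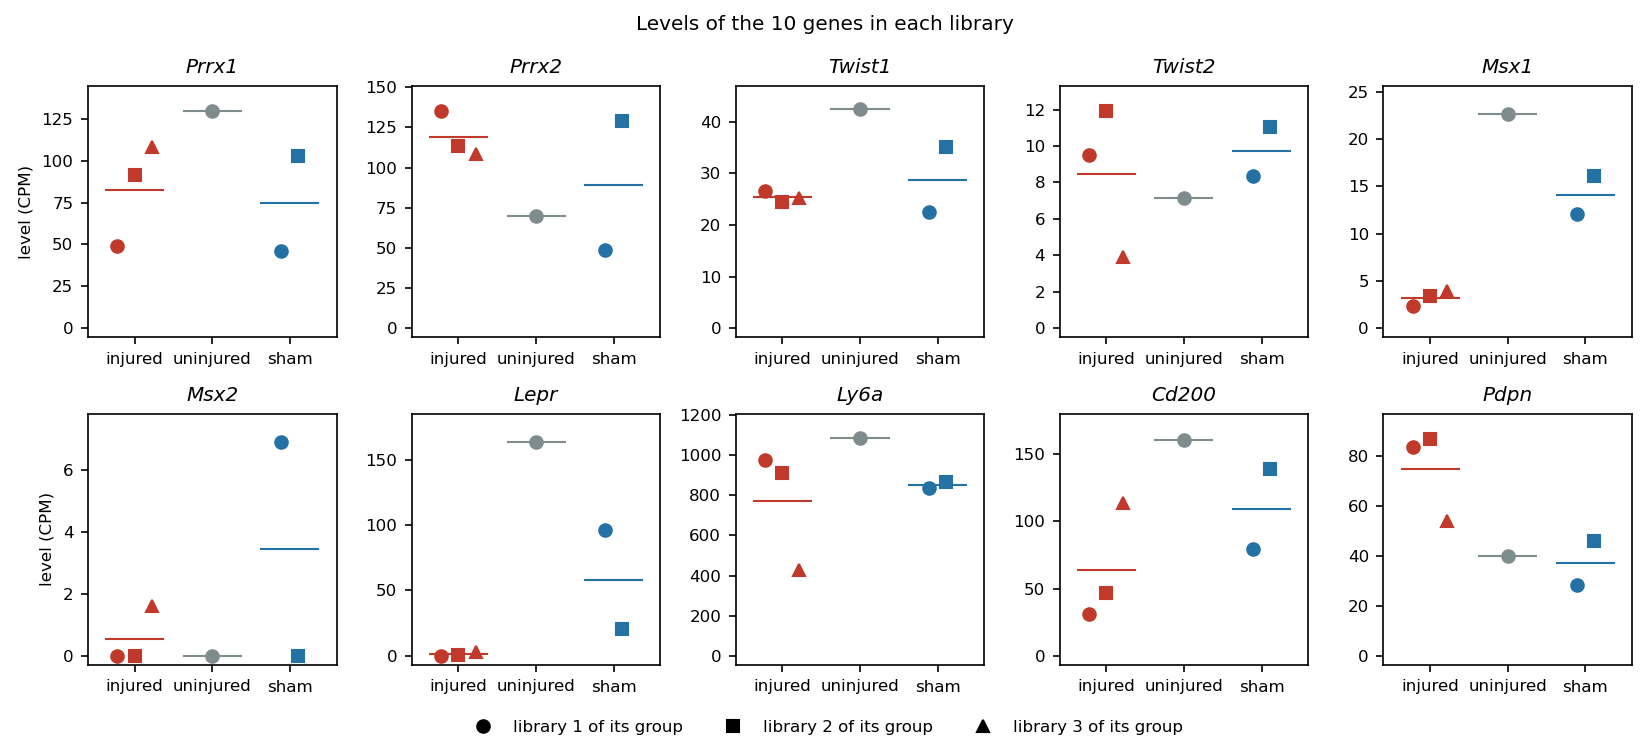
Level in CPM (vertical axis, linear) of each of the 10 genes in each library, with injured, uninjured and sham libraries from left to right; marks give single libraries and lines the group mean. The injured libraries lie wholly below the others for Msx1 and Lepr and wholly above them for Pdpn, and the groups overlap for the remaining genes.

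The first question was how the genes of injured cells compare with those of sham control, and the second how they compare with all 3 non-injured libraries. By edgeR's quasi-likelihood test, 0 of 16752 genes passed an adjusted p of 0.05 in the first comparison and 0 of 14110 in the second. So 0% of all genes and 0 of the 10 passed. An unadjusted edgeR p under 0.05 was reached by 778 genes in the first (4.64%, of which 2.44% higher and 2.20% lower in injured cells) and by 1049 in the second (7.43%, of which 3.71% higher and 3.72% lower). Among the 10 genes these were Lepr and Msx1, both lower, in the first, and in the second the same pair and Pdpn, which was higher. DESeq2, run as an alternative, called Lepr and Msx1 lower in both comparisons. It called 2.20% of all genes in the first, 0.770% as lower, and 2.49% of the 13845 genes that it gave an adjusted p in the second, 1.48% as lower. The injured libraries did not overlap sham control for 3 of the 10 genes, against 21.0% of all genes tested (11.9% wholly above and 9.12% wholly below). They did not overlap the non-injured libraries for the same 3, of 9 genes tested, against 16.3% of all genes (9.23% wholly above and 7.07% wholly below). The 2 comparisons share the injured and sham control libraries. The median log2 fold change of the 10 genes was -0.19 against sham control, beside 0.09 for all genes. Against all non-injured libraries it was -0.27 over the 9 tested, beside 0.00 for all genes.

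The leptin receptor gene Lepr had the log2 fold change furthest from 0 among the 10 genes in both comparisons. It had 0, 0.875 and 3.34 CPM in injured 1, 2 and 3, 163 CPM in uninjured, and 96.0 and 20.6 CPM in sham control 1 and 2. These values rest on 0, 53 and 156 counts in the injured libraries, 6702 in uninjured, and 3552 and 747 in sham control. Every injured library lay below every other library, and the nearest, injured 3 and sham control 2, had 95% Poisson intervals of 2.84 to 3.91 and 19.2 to 22.2 CPM, which cover counting error only. For the count of 0 in injured 1 the upper limit of the same interval is 0.0835 CPM, and a floor of 3 counts is 0.0679 CPM. The mean was 1.41 ± 1.73 CPM in injured cells and 58.3 ± 53.3 in sham control (SD; n = 3 and 2), so that the injured mean was 41.5-fold lower, and the log2 fold change was -5.37 ± 1.67 (SE). This had an unadjusted p of 0.0151 and an adjusted p of 0.865 by edgeR, and an adjusted p of 0.0202 by DESeq2. Against all non-injured libraries, at 93.3 ± 71.3 CPM (SD, n = 3), the injured mean was 66.4-fold lower, and the log2 fold change was -6.06 ± 1.68 (SE; adjusted p = 0.452 by edgeR and 0.000475 by DESeq2). The exact 2-sided permutation p over the 3 injured and 3 non-injured libraries was 0.1 for Lepr, as for Msx1 and Pdpn, the smallest that this design can give. Without sham control 1 the log2 fold change against sham control was -3.87, and without sham control 1 and injured 1 together it was -3.30. In RNA of a sorted population, fewer cells that express a gene and less of its RNA per cell cannot be told apart.

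Lepr was also set against Leprot, its neighbour on chromosome 4, which codes for an endosomal protein and starts 69624 bases upstream. A ratio of counts within a library is free of scaling between libraries. Leprot had 94.9, 153 and 112 CPM in injured 1, 2 and 3, 113 CPM in uninjured, and 61.4 and 144 CPM in sham control 1 and 2, with overlapping groups. Lepr counts were 0%, 0.572% and 2.99% of Leprot counts in injured 1, 2 and 3, against 144% in uninjured and 156% and 14.3% in sham control 1 and 2. The ratio thus separated the injured libraries from the others as the level did, with sham control 2 again the nearest. In the GENCODE M21 transcripts, 3.92% of the 31-base words of Lepr also occurred in transcripts of other genes on the same strand. Leprot shared 94 of its own words with Gm5548 and none with Lepr.

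Markers of other cell types moved with Lepr in part. The 12 Schwann cell genes summed to 359 to 631 CPM in injured libraries and to 922 to 5596 CPM in non-injured ones, without overlap. Their mean log2(CPM + 1) did overlap. It was 3.52, 2.81 and 3.37 in injured 1, 2 and 3, 2.84 in uninjured, and 6.93 and 4.16 in sham control 1 and 2. Uninjured had 4 of the 12 at 0. All 12 had a log2 fold change below 0 against sham control, beside 46.0% of all genes, and 7 of them had an unadjusted p under 0.05 by edgeR, beside 2.20% of all genes on that side. Against all non-injured libraries such a p was reached by 3 of the 11 Schwann genes tested, beside 3.72% of all genes on that side. Their part in the result was not tested. The 10 pericyte and smooth muscle genes summed to 719 to 1372 CPM in injured libraries and 791 to 1808 CPM in non-injured ones. Their sums overlapped, while 8 of the 10 had a log2 fold change below 0 against sham control, with a median of -0.92. Of these Myh11, a smooth muscle myosin, stood at -2.99 ± 0.91 (SE; edgeR unadjusted p = 0.0138, DESeq2 adjusted p = 0.0421) and Tagln, an actin-binding protein of smooth muscle, at -1.82 ± 0.68 (SE; edgeR unadjusted p = 0.0321, DESeq2 adjusted p = 0.250). The part of these cells in the Lepr result was not tested either. The 12 endothelial genes summed to 97.1 to 362 CPM in injured libraries, 929 CPM in uninjured, and 1951 and 26.0 CPM in sham control 1 and 2. All 12 had a log2 fold change below 0 against sham control, with a median of -2.17, and 0 had an unadjusted p under 0.05 by edgeR. Sham control 2 had 9 of the 12 at 0, and its Lepr level was 20.6 CPM. The part of endothelial cells in the Lepr result was not tested. The 8 adipocyte genes summed to 23.3 to 271 CPM in injured libraries and to 36.5 to 494 CPM in non-injured ones.

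**Figure D2:**
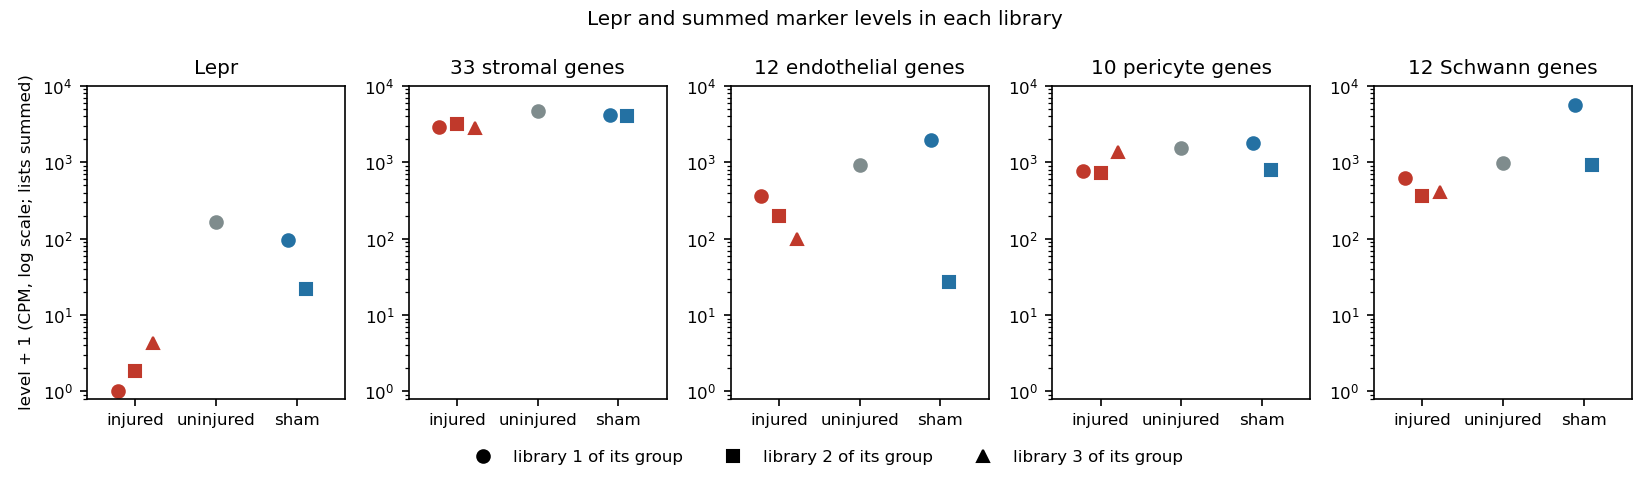
Lepr and the summed levels of 4 marker lists in each library, as CPM + 1 on a log axis, with injured, uninjured and sham libraries from left to right; each mark is 1 library. Lepr, the stromal sum and the Schwann sum separate the injured libraries from the rest. The lowest endothelial sum is that of sham library 2, at 26.0 CPM.

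Msx1, the BMP-induced homeobox gene, was the other gene of the 10 that DESeq2 called. It had 2.40, 3.37 and 3.92 CPM in injured 1, 2 and 3, 22.7 CPM in uninjured, and 12.1 and 16.1 CPM in sham control 1 and 2. The injured libraries were close to each other and lay wholly below the others. The mean was 3.23 ± 0.77 CPM in injured cells and 14.1 ± 2.88 in sham control (SD; n = 3 and 2), and the log2 fold change was -2.12 ± 0.80 (SE). The unadjusted p was 0.0333 and the adjusted p 0.865 by edgeR, and the adjusted p was 0.0447 by DESeq2. Against all non-injured libraries, at 17.0 ± 5.38 CPM (SD, n = 3), the log2 fold change was -2.40 ± 0.70 (SE; adjusted p = 0.452 by edgeR and 0.00665 by DESeq2). Its counts were 9.01%, 13.7% and 15.5% of those of Twist1 in injured 1, 2 and 3, against 53.5% in uninjured and 53.4% and 46.1% in sham control 1 and 2. Msx1 thus stood apart in this scaling-free ratio too, which, like the other ratios of counts given here, was chosen after its values were seen. Its paralog Msx2 had counts in injured 3 (76, or 1.63 CPM) and sham control 1 (255, or 6.89 CPM) and none in the other 4 libraries. Its log2 fold change of -2.66 ± 3.38 (SE) rests on those libraries, and Msx2 did not pass the low-count filter of the second comparison.

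Podoplanin (Pdpn) was the gene that lay wholly above in injured cells. It had 83.4, 86.7 and 54.0 CPM in injured 1, 2 and 3, 39.9 CPM in uninjured, and 28.2 and 45.8 CPM in sham control 1 and 2. The gap between the nearest libraries, injured 3 and sham control 2, was small beside the spread within the injured group. The mean was 74.7 ± 18.0 CPM in injured cells and 37.0 ± 12.4 in sham control (SD; n = 3 and 2). The log2 fold change was 1.01 ± 0.45 (SE; edgeR unadjusted p = 0.0612, adjusted p = 0.865). Against all non-injured libraries, at 37.98 ± 8.96 CPM (SD, n = 3), it was 0.97 ± 0.36 (SE; edgeR unadjusted p = 0.0290, adjusted p = 0.581). DESeq2 did not call it (adjusted p = 0.541 and 0.335 in the first and second comparison). The 6 lymphatic endothelial genes, another site of Pdpn, summed to 5.10 to 45.5 CPM in injured libraries and 13.1 to 203 CPM in non-injured ones, with overlap, and all 6 had a log2 fold change below 0 against sham control. The 11 osteoblast and osteocyte genes summed to 1423 to 6943 CPM in injured libraries and 3471 to 23377 CPM in non-injured ones.

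**Figure D3:**
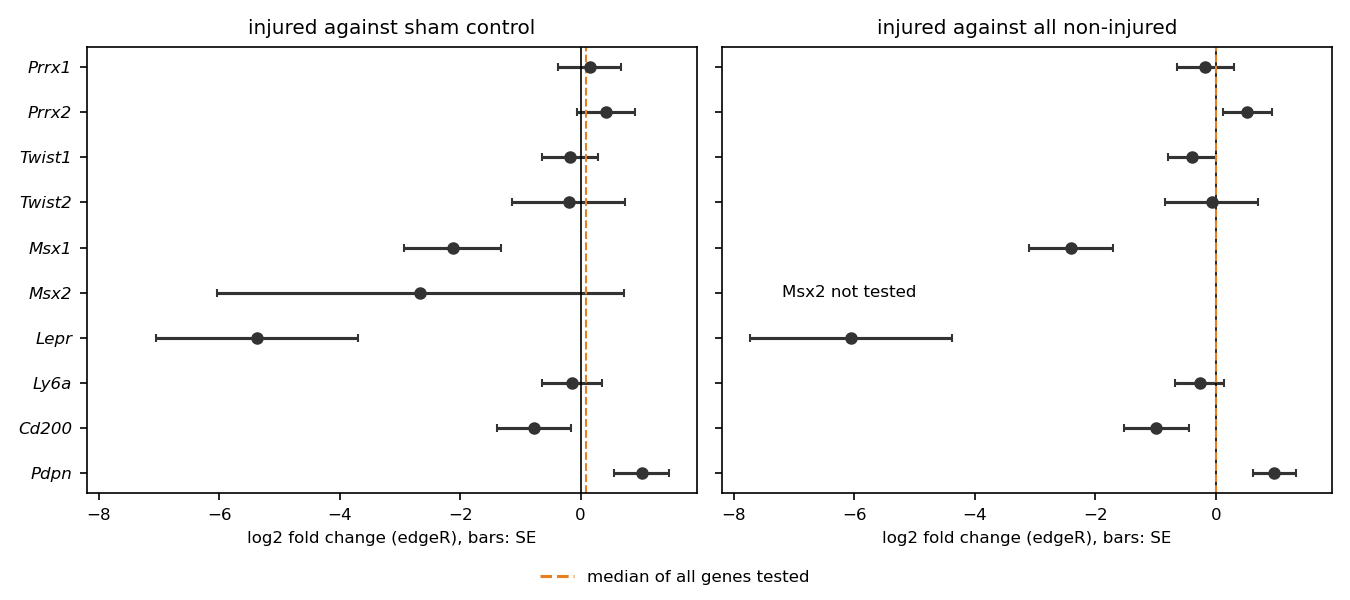
Log2 fold change by edgeR (horizontal axis) of each gene in injured cells against sham control (left) and against all non-injured libraries (right), with bars of 1 SE and a dashed line at the median of all genes tested. Lepr, Msx2 and Msx1 lie furthest below 0 on the left, where the bar of Msx2 crosses 0, Pdpn lies above 0, and Msx2 was not tested on the right.

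The Prrx and Twist genes overlapped between the groups in both comparisons. Prrx1 had 48.8, 91.3 and 108 CPM in injured 1, 2 and 3, 130 CPM in uninjured, and 46.0 and 103 CPM in sham control 1 and 2. Injured 1 and sham control 1, the libraries with the most ribosomal RNA, were the low ones, and the part of that in the result was not tested. The log2 fold change was 0.15 ± 0.53 against sham control and -0.17 ± 0.48 against all non-injured libraries (SE), and its sign turned with single libraries. Prrx2 had 135, 114 and 109 CPM in injured 1, 2 and 3, 69.8 CPM in uninjured, and 48.9 and 129 CPM in sham control 1 and 2. Sham control 2 lay among the injured libraries, and the log2 fold changes were 0.42 ± 0.49 and 0.52 ± 0.41 (SE). Prrx2 counts stood to Prrx1 counts as 2.77, 1.25 and 1.00 in injured 1, 2 and 3, 0.539 in uninjured, and 1.06 and 1.25 in sham control 1 and 2. Injured 1 was high and uninjured low in that ratio, and the rest lay together.

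Twist1 was close to even across the injured libraries. It had 26.6, 24.5 and 25.2 CPM in injured 1, 2 and 3, 42.5 CPM in uninjured, and 22.6 and 35.0 CPM in sham control 1 and 2. The log2 fold changes were -0.18 ± 0.46 against sham control and -0.39 ± 0.39 against all non-injured libraries (SE). Twist2 had 9.51, 11.9 and 3.92 CPM in injured 1, 2 and 3, 7.16 CPM in uninjured, and 8.35 and 11.05 CPM in sham control 1 and 2. Injured 3 was the low library, and the fold changes were -0.20 ± 0.94 and -0.07 ± 0.77 (SE). Of the 31-base words of Twist2, 46.0% also occurred on the opposite strand in the gene Gm29100. The strand setting of the counting is not stated in the sources used here, so the 2 genes may share reads and the Twist2 values are uncertain. For Prrx1, Prrx2, Twist1 and Twist2 the edgeR adjusted p lay between 0.888 and 1.00 in both comparisons, and a p that misses the threshold does not show that the levels were equal.

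Ly6a, which codes for Sca-1, was the most abundant of the 10. It had 974, 909 and 429 CPM in injured 1, 2 and 3, 1083 CPM in uninjured, and 835 and 864 CPM in sham control 1 and 2. Injured 3 was low and the other 5 libraries ranged from 835 to 1083 CPM. The log2 fold change was -0.14 ± 0.49 against sham control (SE; edgeR adjusted p = 0.998). Its family member Ly6c1, a surface protein of endothelial and some stromal cells, behaved otherwise. Ly6c1 had 570, 527 and 220 CPM in injured 1, 2 and 3, 1295 CPM in uninjured, and 1127 and 828 CPM in sham control 1 and 2. The injured libraries lay wholly below, and the log2 fold change against sham control was -1.15 ± 0.52 (SE; edgeR adjusted p = 0.865, DESeq2 0.382). Ly6c1 counts were 58.6%, 58.0% and 51.3% of Ly6a counts in injured 1, 2 and 3, against 120% in uninjured and 135% and 95.8% in sham control 1 and 2. The closely related sequences limit this reading. Of the 31-base words of Ly6a, 31.9% occurred in other genes and 21.9% in Ly6c1, so the division of reads between the pair is uncertain.

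**Figure D4:**
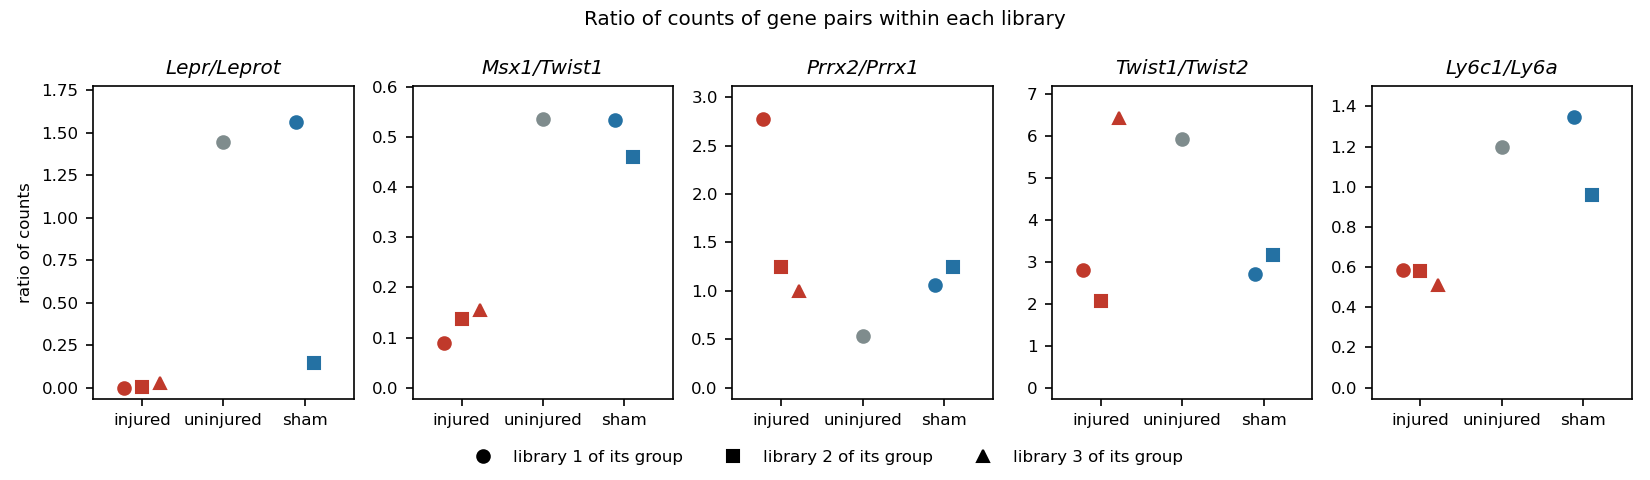
Ratio of counts (vertical axis, linear) for 5 pairs of genes within each library, with injured, uninjured and sham libraries from left to right; each mark is 1 library. Lepr to Leprot, Msx1 to Twist1 and Ly6c1 to Ly6a separate the injured libraries from the rest, and Prrx2 to Prrx1 and Twist1 to Twist2 do not.

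Cd200 had 30.96, 46.9 and 114 CPM in injured 1, 2 and 3, 160 CPM in uninjured, and 79.4 and 139 CPM in sham control 1 and 2. Injured 3 lay above sham control 1, so the groups overlapped. The mean was 64.0 ± 44.1 CPM in injured cells and 109 ± 42.0 in sham control (SD; n = 3 and 2). The log2 fold change was -0.77 ± 0.61 (SE; edgeR adjusted p = 0.865). Against all non-injured libraries it was -0.99 ± 0.54 (SE; edgeR adjusted p = 0.790). The protein is commonly part of the sort for skeletal stem cells, and the part of the gate in its level was not tested.

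Per kilobase of the median coding transcript in GENCODE M21, the order of the mean levels over the 6 libraries was Ly6a (990.3 CPM per kilobase), Prrx2 (80.3), Pdpn (43.7), Cd200 (42.9), Twist1 (18.1), Prrx1 (17.6), Lepr (12.6), Msx1 (5.22), Twist2 (4.49) and Msx2 (0.579). Ly6a stood above the other 9 genes in every library. Prrx2 also stood above Pdpn, and Twist2 above Msx2, within every library, though their ranges over the libraries overlapped. The remaining pairs of neighbours after Prrx2 changed order between libraries. Lepr had a mean of 0.373 CPM per kilobase in injured cells and 24.7 in non-injured ones. The uninjured library was the highest for 6 of the 10 genes, and sham control 1 was the lowest for 4.

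Genes with the pattern most like a member over the 6 libraries were sought among 9020 genes (9021 for Twist2 and Msx2) with a mean of at least 10 CPM, by Pearson's r of log2(CPM + 1), given as a description. For Lepr these were Lama2, a laminin chain of muscle and nerve basement membranes (r = 0.994), and Gpc3, a glypican that binds growth factors (r = 0.993). Lama2 had 2.94, 7.60 and 10.9 CPM in injured 1, 2 and 3, 93.9 CPM in uninjured, and 64.8 and 30.5 CPM in sham control 1 and 2. Gpc3 had 6.83, 10.1 and 14.5 CPM in injured 1, 2 and 3, 163 CPM in uninjured, and 115 and 65.3 CPM in sham control 1 and 2. Both were chosen for their likeness to Lepr in these libraries, so that their low injured values follow from the choice and are given with no test. For Msx1 they were C7, a complement protein (r = 0.995), and Cilp2, a cartilage matrix protein (r = 0.991). For Cd200 they were Dusp8 (r = 0.996), a phosphatase of MAP kinases, and Itga10 (r = 0.989), a collagen-binding integrin chain, and for Pdpn they were Trp53 (r = 0.983) and Decr1 (r = 0.980). The first gene was Slc35a1 for Prrx1 (r = 0.998), Med21 for Prrx2 (r = 0.998), H2afv for Twist2 (r = 0.989), Blcap for Msx2 (r = 0.983) and Gpr137b for Ly6a (r = 0.967). A high r over 6 libraries was not particular to the genes named: 66 genes exceeded r = 0.95 with Lepr, 67 with Msx1, 51 with Cd200 and 27 with Pdpn. The count was 147 for Prrx1, 44 for Prrx2, and 4 for each of Twist2, Msx2 and Ly6a. Among the 10 genes themselves the highest r was that of Msx1 with Lepr (0.940), followed by Prrx2 with Pdpn (0.815). The lowest were those of Lepr with Pdpn (-0.92) and Msx1 with Pdpn (-0.80). Lepr, Msx1 and Pdpn are the genes whose groups did not overlap, so the values of r among them carry that separation.

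Other genes of the same biology were read as lists, which were chosen with earlier results of these data known. Of 44 further limb mesenchyme transcription factors, 37 were tested against sham control. Of these 25 had a log2 fold change below 0 and 12 above, with a median of -0.31 beside 0.09 for all genes. By edgeR 0 passed and 2 had an unadjusted p under 0.05, both lower, beside 2.20% of all genes on that side. These 2 were Foxd1 (edgeR unadjusted p = 0.00143) and Lhx2 (0.0361). Lhx2 had a log2 fold change of -9.32 ± 3.25 (SE), and DESeq2 did not call it (adjusted p = 0.459). The injured libraries lay wholly below sham control for 4 of the 37, beside 9.12% of all genes, and wholly above for 0, beside 11.9%. Foxd1, a forkhead factor of embryonic stroma, was the member that DESeq2 called. It had 3.82, 4.06 and 4.22 CPM in injured 1, 2 and 3, 43.2 CPM in uninjured, and 26.1 and 31.4 CPM in sham control 1 and 2. The injured libraries lay close together and wholly below, and the log2 fold change was -2.83 ± 0.55 (SE; edgeR adjusted p = 0.865, DESeq2 2.54e-06). Meis3, a TALE homeobox gene, had 4.95 to 9.12 CPM in injured libraries, 25.3 CPM in uninjured, and 19.7 and 19.9 CPM in sham control. Against sham control its edgeR unadjusted p was 0.0555 and its DESeq2 adjusted p 0.226.

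The partners and relatives of Twist did not share a direction against sham control. Of 15 tested against sham control, 8 had a fold above 0 and 7 below, with 0 passing by edgeR or DESeq2, 0 having an unadjusted p under 0.05 by edgeR, and a median log2 fold change of 0.13. Of 13 tested against all non-injured libraries, 4 lay above 0 and 9 below, with a median of -0.08 and 0 passing by edgeR or DESeq2. Id2 and Id4, both lower, had an edgeR unadjusted p under 0.05 there (0.0323 and 0.0497), beside 3.72% of all genes on that side. Id2, an inhibitor of helix-loop-helix proteins, had 75.6 to 128 CPM in injured libraries, 235 CPM in uninjured, and 113 and 271 CPM in sham control (edgeR adjusted p = 0.865), with overlap. Scx, the helix-loop-helix factor of tendon, had 56.8 to 89.3 CPM in injured libraries, 36.5 CPM in uninjured, and 8.92 and 41.6 CPM in sham control (log2 fold change 1.43 ± 0.70, SE; edgeR adjusted p = 0.865). That fold change was 0.71 without sham control 1 and 2.93 without sham control 2. The injured libraries thus lay wholly above the others for Scx.

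Partners of the surface proteins include leptin signalling genes, the Cd200 receptors, podoplanin binding proteins and the Ly6 family. Of 25 tested against sham control, 18 had a fold below 0 and 7 above, with a median of -0.42, and 0 passed by edgeR or DESeq2. The injured libraries lay wholly below sham control for 5 of them, beside 9.12% of all genes, and wholly above for 0, beside 11.9%. Socs3, the feedback inhibitor induced by leptin and other cytokines, had 142 to 244 CPM in injured libraries, 493 CPM in uninjured, and 473 and 377 CPM in sham control. Its log2 fold change was -1.10 ± 0.40 (SE; edgeR adjusted p = 0.865), and DESeq2 called it against all non-injured libraries (adjusted p = 0.0181) and not against sham control (0.152). Ptpn1, a phosphatase that also restrains leptin signalling, had 65.0 to 91.2 CPM in injured libraries, 112 CPM in uninjured, and 159 and 107 CPM in sham control. Both genes, named for a small p within this list, lay wholly below in the injured libraries.

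Of 33 further stromal progenitor markers, all tested against sham control, 26 had a fold below 0 and 7 above, with a median log2 fold change of -0.61 beside 0.09 for all genes. Their sum was 2825 to 3152 CPM in injured libraries and 3988 to 4648 CPM in non-injured ones, without overlap. By edgeR 0 passed, and 2 had an unadjusted p under 0.05, both lower, beside 2.20% of all genes. The injured libraries lay wholly below sham control for 5, beside 9.12% of all genes, and wholly above for 0, beside 11.9%. Col15a1, a basement membrane collagen that marks a type of fibroblast, had 23.9, 36.7 and 28.5 CPM in injured 1, 2 and 3, 63.5 CPM in uninjured, and 90.7 and 117 CPM in sham control 1 and 2. It was the one member of the list that DESeq2 called against sham control (log2 fold change -1.81 ± 0.40 by edgeR, SE; edgeR adjusted p = 0.865, DESeq2 0.00146). Thbd, the thrombin receptor thrombomodulin, had 19.0 to 60.9 CPM in injured libraries, 267 CPM in uninjured, and 180 and 85.7 CPM in sham control. Against all non-injured libraries DESeq2 called 2 of the 32 tested, Col15a1 (adjusted p = 0.00606) and Thbd (0.00719), beside 2.49% of all genes. Pi16, a marker of adventitial fibroblasts, had 5.52 to 34.1 CPM in injured libraries, 70.5 CPM in uninjured, and 144 and 38.5 CPM in sham control. Cd34, shared by stromal progenitors and endothelium, had 119 to 308 CPM in injured libraries, 746 CPM in uninjured, and 511 and 292 CPM in sham control, with overlap. Of these 4 genes, Col15a1, Thbd and Pi16 lay wholly below in injured libraries. The 4 were named for the smallest edgeR p of the list against sham control, so that separation follows in part from the choice. Thbd and Cd34 are also made by endothelium, whose marker sums are given above, and the part of that cell type in their levels was not tested.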

How the data were processed

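RNA of sorted mouse skeletal stem cells was sequenced in 6 libraries (injured n = 3, uninjured n = 1, sham control n = 2), grouped by their titles. The authors deposited whole-number counts per gene symbol. Tools listed per the submitters' processing notes are DESeq, DESeq2 1.22.2 and Salmon 0.12.0, and the builds listed are mm9 and GRCm38.p6, with no role for each. The annotation, the strand setting and the step from estimates to whole numbers are not stated in the sources used here. Unequal totals (37506188 to 51089267) do not exclude earlier scaling and rounding. Counts were scaled by the trimmed mean of M-values and filtered by filterByExpr (minimum count 10). They were tested over all genes in R 4.3.3 with the quasi-likelihood test of edgeR 4.0.16, and p-values were adjusted by Benjamini-Hochberg (threshold 0.05). All 6 libraries entered as 3 groups against sham control (3 residual degrees of freedom) and as 2 groups against all non-injured libraries (4). The fit was tested on simulated data. Standard errors were derived from the F statistic. DESeq2 1.42.0 and limma 3.58.1 (voom), other scalings and filters, and fits without single libraries or with replicate numbers as a block were alternatives. Labels do not say whether libraries are separate animals, so p-values speak to the spread among these 6 samples alone, and that spread may be technical. The members and lists were chosen with earlier results of these data known. Genes named beyond the 10 were taken from those with the smallest p in each list, though not all of these are named. The others are those most alike in pattern, sequence or locus neighbours, and genes of proteins commonly used in the sort. One result on likeness of pattern is not reported here. Promoter windows are from RefSeq (GRCm38.p6) and 31-base words from GENCODE M21 transcripts.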

Additional observations from a re-analysis of the deposited data

How the results depend on the processing

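Lepr, Msx1, Cd200 and Pdpn, 4 of the 10 genes, kept their direction in every alternative of both comparisons, leaving out each library included. Against sham control Lepr ranged from -7.75 to -3.30 log2 units, Msx1 from -2.32 to -1.90, Cd200 from -1.50 to -0.31 and Pdpn from 0.62 to 1.41. By edgeR the counts of genes called, over all genes and over the 10, were 0 to 0 when single libraries were left out. Over all genes 3 and 5 were called without a low-count filter in the first and second comparison, 1 and 7 by limma-voom and 369 and 345 by DESeq2, which called 2 of the 10 genes in each. The median of the 10 genes was -0.026 with library size alone against sham control, where the median of all genes moved to 0.23. It ranged from -0.42 to -0.049 (sham control) and from -0.49 to -0.20 (all non-injured) with single libraries left out, and was -0.43 and -0.54 without sham control 1 and injured 1 together. The mean level of the 10 genes, injured minus all non-injured, was -0.82 at a pseudocount of 1, -1.02 at 0.1 and -0.57 at 5.

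Directions turned for genes with folds near 0 or with counts in few libraries; the cause was not tested. With single libraries left out, fold changes against sham control ranged from -0.32 to 0.85 for Prrx1, -0.11 to 1.29 for Prrx2, -0.46 to 0.17 for Twist1, -0.54 to 0.12 for Twist2, -10.27 to 7.64 for Msx2, -0.34 to 0.12 for Ly6a and -0.26 to 0.97 for Leprot. Against all non-injured libraries they ranged from -0.49 to 0.16 for Prrx1, -0.42 to 0.24 for Twist2 and -0.10 to 0.46 for Leprot. Without sham control 1 and injured 1 together, the values against sham control were -0.047 for Prrx1, -0.22 for Prrx2, 8.23 for Msx2 and -0.12 for Leprot. With library size alone they were 0.0029 for Ly6a (sham control) and 0.039 for Twist2 (all non-injured). With the replicate block, on sham control and injured 1 and 2, they were -0.069 for Prrx1, 0.12 for Twist2 and 0.12 for Ly6a. The same 4 libraries with no replicate block, a fit added after seeing the data, gave -0.10 for Prrx1, 0.12 for Twist2 and 0.12 for Ly6a. The replicate block changed no call. Libraries 1 of both groups deviated together (r = 0.241 over genes), but with 2 pairs and no label of pairing the number does not show that they were paired. These libraries also had the most ribosomal RNA, 14.7% and 15.0% of counts, and its part in the shared deviation was not tested. Msx2 gave no value in those 4 libraries. Lepr had a count of 0 in 1 library and Msx2 in 4, which limits the precision of their fold changes.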
